A study of Mus musculus with 30 samples.

Results

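The genes described here are 8 genes of macrophages: C1qa, C1qb and C1qc, Adgre1, Csf1r, Tyrobp, Cd68 and Fcer1g. They were chosen by gene symbol, and each had 1 probe, so 8 of 26423 probes and 8 of 19084 named genes were followed through all 30 samples of a study of chemical reprogramming in mouse cells. Messenger RNA was measured on a 1-colour oligonucleotide array, and every value below is an intensity on a linear scale unless it is called a log2 difference. The samples came as 5 sets that the authors normalized separately, so levels were compared only within a set. Each sample is 1 column that stands for 2 or 3 arrays, the number of arrays limits the precision, and whether these arrays came from separate cultures is not stated, so the errors below measure the spread between these samples.

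The pluripotent samples were 11 chemically induced lines (CiPSC), 2 OSKM iPSC lines, 2 SKM-FSK iPSC lines and 5 embryonic stem cell samples (ESC). The OSKM lines came from MEF without chemical treatment, made with the factors Oct4, Sox2, Klf4 and Myc. The SKM-FSK lines came from MEF treated with F. Their name stands for Sox2, Klf4 and Myc, with forskolin (FSK) in place of Oct4. Of the ESC samples 4 were of line R1 and 1, ESC2, of line TT2. Per the labels the pluripotent lines were grown over feeder layers, which were MEF stopped with mitomycin C. RNA of feeder cells in these lines was not tested. The CiPSC lines were made with different combinations of compounds, given as letters: VC6TFMP+Z for CiPS34, VC6TFS+Z for MNF CiPS7, VC6F+Z for CiPS50, VC6TFDBS+Z for CiPS21, VCT6FMDBR+Z for MNF CiPS1, VC6TFDM+Z for MAF CiPS3, FC6+Z for CiPS45, VC6TFMPS+Z for ADSC CiPS2, CiPS WT1 and CiPS WT2, and VC6TF+Z for the CiPSC control. MEF under treatment were sampled once at day 12 (VC6TF), day 20 and day 32 (both VC6TF+Z). The somatic samples were 7 untreated cultures in serum: MEF1, MEF2, MEF3 and wild-type (WT) MEF from embryos, neonatal fibroblasts (MNF), adult lung fibroblasts (MAF) and adipose-derived stem cells (ADSC). Sets 1 to 5 held MEF1, then MNF with MAF and ADSC, then WT MEF, MEF2 and MEF3, each with 1 ESC sample. Pluripotency markers checked the labels over all sets: 8 of 8 measured were higher in pluripotent than in somatic samples, and 7 of 9 fibroblast markers were lower. Set 5 alone was less clear, with 6 of 8 pluripotency markers at least 2-fold above MEF3 in the CiPSC control and in ESC5. Pou5f1 was 61.0 in MEF3, 24.2 in the CiPSC control and 140.5 in ESC5, and Sox2 was 28.2, 41.1 and 34.2.

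Macrophages are phagocytes of the blood lineage that live in most tissues, and cultures grown out of a tissue can carry them along. C1qa, C1qb and C1qc encode the chains of C1q, the recognition protein that starts the classical complement pathway and that macrophages are a main source of. Csf1r is the receptor through which the growth factors Csf1 and Il34 keep macrophages alive, Adgre1 is a surface protein used as a mouse macrophage marker, Tyrobp and Fcer1g are membrane adaptors with an ITAM signalling motif, and Cd68 is a glycoprotein of endosomes and lysosomes.

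The C1q genes lie side by side. C1qb, C1qc and C1qa occupy 18719 bases of chromosome 4 (chr4:136880126-136886200, chr4:136889801-136892936 and chr4:136895916-136898844, GRCm38.p6), with 3600 and 2979 bases between neighbours. RefSeq promoters, windows of 300 bases that end just past the start site, are shown for 4 of the 8 genes. Those of the other genes were not examined. Of the genes shown 3 fell together, and the fourth, Cd68, did not. All 4 lie on the minus strand of GRCm38.p6, at chr4:136886151-136886450, chr4:136892865-136893164, chr1:171234300-171234599 and chr11:69666121-69666420, and are written 5′ to 3′. Capitals mark GGAA, the core of the sequence bound by ETS factors, on either strand.
C1qb: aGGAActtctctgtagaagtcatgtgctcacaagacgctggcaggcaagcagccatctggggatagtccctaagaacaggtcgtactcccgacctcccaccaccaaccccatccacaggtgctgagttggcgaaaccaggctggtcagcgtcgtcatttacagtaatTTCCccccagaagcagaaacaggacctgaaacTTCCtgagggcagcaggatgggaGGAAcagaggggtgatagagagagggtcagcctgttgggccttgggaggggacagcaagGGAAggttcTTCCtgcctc
C1qc: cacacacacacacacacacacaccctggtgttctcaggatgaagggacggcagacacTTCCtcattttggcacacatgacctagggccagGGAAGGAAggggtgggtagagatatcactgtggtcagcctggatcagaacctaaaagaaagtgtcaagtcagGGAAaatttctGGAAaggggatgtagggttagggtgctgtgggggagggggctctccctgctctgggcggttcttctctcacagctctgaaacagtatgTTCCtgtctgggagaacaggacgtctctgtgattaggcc
Fcer1g: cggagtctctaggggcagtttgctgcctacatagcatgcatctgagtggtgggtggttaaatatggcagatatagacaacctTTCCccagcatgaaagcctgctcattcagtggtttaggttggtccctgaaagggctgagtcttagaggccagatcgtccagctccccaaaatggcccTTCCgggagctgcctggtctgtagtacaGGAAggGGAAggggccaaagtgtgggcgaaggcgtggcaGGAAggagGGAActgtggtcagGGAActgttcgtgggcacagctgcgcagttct
Cd68: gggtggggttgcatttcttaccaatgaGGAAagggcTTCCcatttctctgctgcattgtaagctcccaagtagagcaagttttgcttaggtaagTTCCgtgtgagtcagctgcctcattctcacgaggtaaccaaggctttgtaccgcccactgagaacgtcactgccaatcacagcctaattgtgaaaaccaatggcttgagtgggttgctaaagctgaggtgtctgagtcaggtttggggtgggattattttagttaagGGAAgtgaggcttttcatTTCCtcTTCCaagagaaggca
GGAA occurred 6 times in the C1qb, C1qc and Cd68 promoters and 7 times in that of Fcer1g. Over all 32851 promoters of this length the median was 3, 96.0% held at least 1 and 15.7% held 6 or more. GAGGAA, which contains GGAA, was found on either strand 1 time for C1qb, 1 time for C1qc, 2 times for Cd68 and not in the Fcer1g window, against 28.3% of all promoters with a match. TGAGTCA was found 2 times in the Cd68 promoter and in none of the other windows (5.2% of all promoters), and CACGTG in none of them (7.15% of all promoters). These matches describe letters and not binding.

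C1q transcripts stood high in the embryonic fibroblast cultures and low in every pluripotent line of the same set. C1qa, reported in sets 1, 4 and 5, had a lowest, median and highest value of 27.4, 30.9 and 36.0 in the 6 pluripotent samples of set 1, against 3436 in MEF1. In set 4 it was 78.8 in SKM-FSK1, 72.7 in SKM-FSK2 and 97.6 in ESC4, against 3749 in MEF2. In set 5 it was 26.5 in the CiPSC control and 21.5 in ESC5, against 884 in MEF3. In all 3 sets the somatic culture lay far above every pluripotent sample, by 95.4, 38.4 and 33.4 times the highest of them. In bulk samples such as these, fewer cells of a type and less RNA per cell cannot be told apart.

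C1qb was reported in sets 4 and 5. It was 40.3 in SKM-FSK1, 32.8 in SKM-FSK2 and 31.2 in ESC4, against 1943 in MEF2. The set 5 values were 15.2 in the CiPSC control and 15.6 in ESC5, against 1074 in MEF3. The pluripotent values of set 5 lie under 16, the floor used for folds here, so MEF3 was at least 67.1-fold higher.

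C1qc was the only C1q gene with a value in all 30 samples. In set 1 its lowest, median and highest values were 42.2, 50.2 and 69.9 in the 6 pluripotent samples, against 495 in MEF1. In set 2 they were 56.2, 69.6 and 80.0 in the 6 pluripotent samples, against 123 in MNF, 1184 in MAF and 269 in ADSC. All 3 cultures lay above the pluripotent range, MNF by the least. In set 3 C1qc was 90.4 in CiPS WT1, 101 in CiPS WT2 and 46.6 in ESC3, against 8565 in WT MEF. It was 108 in SKM-FSK1, 136 in SKM-FSK2 and 77.9 in ESC4, against 2160 in MEF2. In set 5 it was 74.8 in the CiPSC control and 65.6 in ESC5, against 2219 in MEF3. No pluripotent sample of any set overlapped a somatic one.

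The membrane genes Adgre1 and Csf1r, both reported in sets 4 and 5, followed the same order. Adgre1 was 92.4 in SKM-FSK1, 81.2 in SKM-FSK2 and 69.8 in ESC4, against 687 in MEF2, and 22.0 in the CiPSC control and 15.8 in ESC5, against 121 in MEF3. Csf1r was 46.3 in SKM-FSK1, 79.6 in SKM-FSK2 and 84.3 in ESC4, against 1054 in MEF2. Its set 5 values were 43.2 in the CiPSC control and 32.8 in ESC5, against 194 in MEF3. For both genes the somatic culture was the highest sample of its set.

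The adaptors differed from each other. Fcer1g had a lowest, median and highest value of 151, 179 and 193 in the pluripotent samples of set 1, against 2051 in MEF1. In set 2 these values were 239, 288 and 318, against 607 in MNF, 9196 in MAF and 528 in ADSC. It was 165 in CiPS WT1, 169 in CiPS WT2 and 136 in ESC3, against 7916 in WT MEF. In set 4 it was 420 in SKM-FSK1, 480 in SKM-FSK2 and 494 in ESC4, against 1250 in MEF2. In set 5 it was 284 in the CiPSC control and 153 in ESC5, against 4296 in MEF3. As with C1qc, no pluripotent sample overlapped a somatic sample of its set.

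Tyrobp, reported in sets 4 and 5, went in opposite directions in these sets. It was 15.3 in SKM-FSK1, 17.8 in SKM-FSK2 and 5.58 in ESC4, against 311 in MEF2. Set 5 had 128 in the CiPSC control and 184 in ESC5, against 34.6 in MEF3. MEF2 was thus above and MEF3 below the pluripotent samples of its set, and the difference between these sets was not tested.

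Cd68 was high in pluripotent lines as well as in some cultures. In set 1 its lowest, median and highest values were 418, 694 and 1250 in the pluripotent samples, against 791 in MEF1. In set 2 they were 379, 733 and 2919, against 167 in MNF, 5919 in MAF and 340 in ADSC. MAF lay above and MNF and ADSC below all 6 pluripotent samples, and the highest of these was MAF CiPS3, titled as made from lung fibroblasts. The source label of ADSC CiPS2, at 414, also names lung fibroblasts, against its title. Cd68 was 768 in CiPS WT1, 1514 in CiPS WT2 and 1477 in ESC3, against 6426 in WT MEF. It was 1596 in SKM-FSK1, 1046 in SKM-FSK2 and 2230 in ESC4, against 2494 in MEF2. In set 5 it was 1913 in the CiPSC control and 3958 in ESC5, against 2268 in MEF3, which lay between them.

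**Figure D1:**
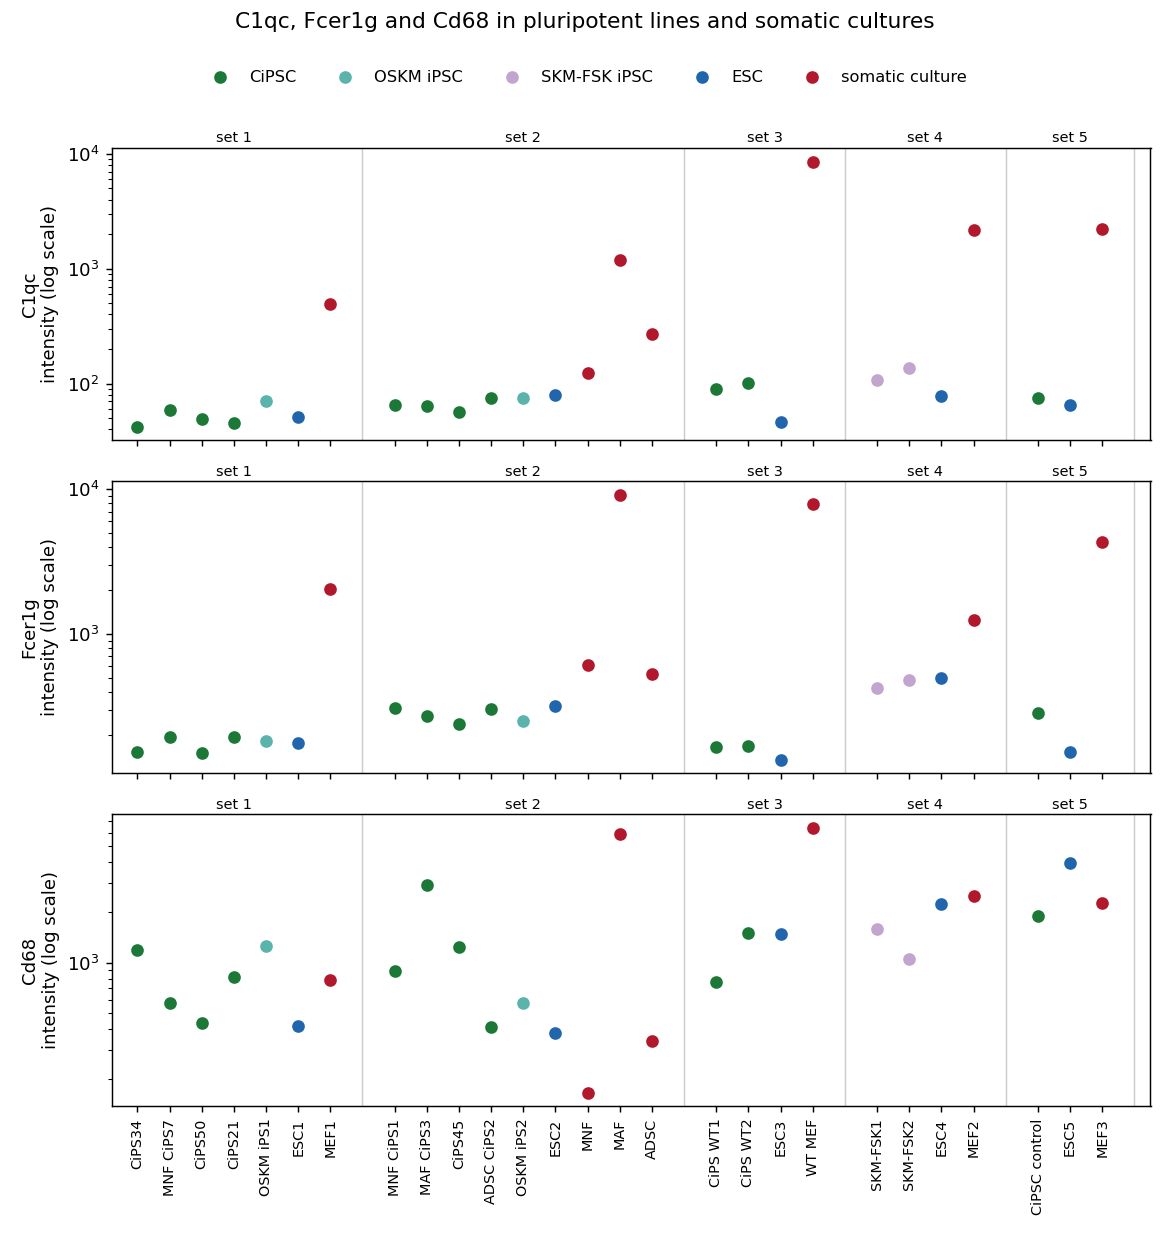
Intensity (log axis) of C1qc, Fcer1g and Cd68 in the pluripotent lines and somatic cultures of the 5 sets, 1 point per sample, coloured by group. For C1qc and Fcer1g every somatic culture lies above all pluripotent samples of its set, with WT MEF at 8565 and 7916, while for Cd68 the groups overlap in sets 1, 2 and 5.

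**Figure D2:**
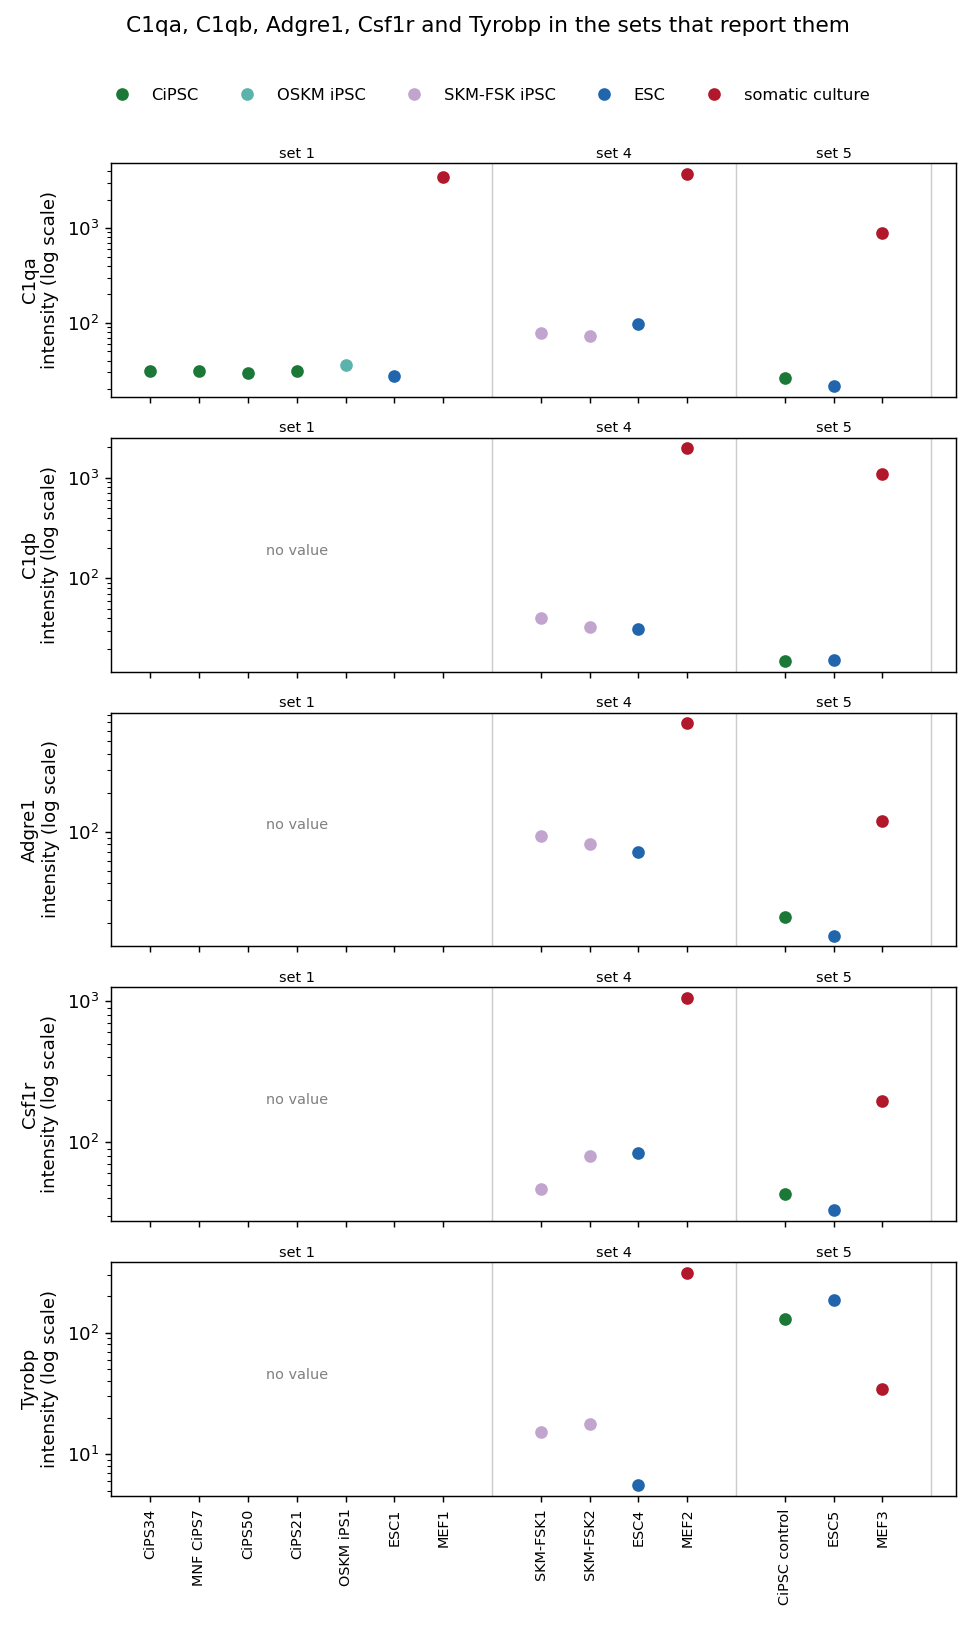
Intensity (log axis) of the 5 genes that sets 2 and 3 do not report, 1 point per sample in sets 1, 4 and 5, coloured by group. C1qa, C1qb, Adgre1 and Csf1r are highest in the somatic culture of each set, and Tyrobp is higher in MEF2 than in the pluripotent samples of set 4 but lower in MEF3 than in those of set 5.

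Differences between groups were fitted over all 30 samples with limma, with set as a term. Calls needed at least a 2-fold change and an adjusted p under 0.05 over all genes tested. Shares over all genes, here and below, also count probes without a gene, each on its own. Between CiPSC and somatic samples 4 of the 8 genes could be tested, and C1qa, C1qc and Fcer1g fell, 3 of 4 against 13.1% of all genes tested. The log2 difference was -5.94 ± 0.38 (SE, adjusted p = 5.2e-07, limma) for C1qa with 5 and 3 samples, -3.73 ± 0.48 (adjusted p = 2.6e-06) for C1qc and -3.26 ± 0.50 (adjusted p = 2.4e-05) for Fcer1g, both with 11 and 7 samples. Cd68 differed by -0.21 ± 0.60 (adjusted p = 0.80) and did not pass. The remaining genes, C1qb, Adgre1, Csf1r and Tyrobp, were reported in too few sets for this test.

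ESC differed from somatic samples in the same 3 genes, against 14% of all genes tested. C1qa was at -5.87 ± 0.38 (adjusted p = 7.6e-07), C1qc at -4.18 ± 0.57 (adjusted p = 6.6e-06) and Fcer1g at -3.31 ± 0.59 (adjusted p = 1.6e-04), while Cd68 was at -0.53 ± 0.70 (adjusted p = 0.57, all limma). Between CiPSC and ESC 0 of these 4 genes were called (limma, adjusted p = 0.999979 for each), where 0.0303% of genes were called in all. The log2 differences were -0.08 ± 0.38 for C1qa, 0.45 ± 0.55 for C1qc, 0.04 ± 0.57 for Fcer1g and 0.33 ± 0.67 for Cd68, so differences of the size of these errors could not be seen.

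In OSKM iPSC 2 of 3 tested genes fell against somatic samples, where 9.78% of all genes did. C1qc was at -3.17 ± 0.79 (adjusted p = 0.0058) and Fcer1g at -3.17 ± 0.83 (adjusted p = 0.0077, limma), and Cd68 was at 0.01 ± 0.98 (adjusted p = 0.997). With 1 line left out the differences stayed about as large but neither call was kept: without OSKM iPS1 they were -3.11 for C1qc (adjusted p = 0.0715) and -3.11 for Fcer1g (adjusted p = 0.0861), and without OSKM iPS2 -3.23 (adjusted p = 0.0810) and -3.25 (adjusted p = 0.0943). The lone line left was assumed to vary like the other groups. In SKM-FSK iPSC 2 of 4 fell, against 7.74% of all genes tested, with C1qa at -5.93 ± 0.50 (adjusted p = 4.8e-05) and C1qc at -3.85 ± 1.00 (adjusted p = 0.0114, limma). Fcer1g was at -2.46 ± 1.04 (adjusted p = 0.127) and Cd68 at -1.14 ± 1.23 (adjusted p = 0.627). The C1qc call was lost, with a difference of similar size, without MEF2 (-3.41, adjusted p = 0.175), SKM-FSK1 (-3.69, adjusted p = 0.0879) or SKM-FSK2 (-4.01, adjusted p = 0.0612).

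To test the genes reported in sets 4 and 5 only, all pluripotent groups were joined into 1 group, a choice made after the data were seen. Of the 8 genes 6 were then lower in pluripotent than in somatic samples, against 13.3% of all 19762 tested, probes without a gene included. C1qb was at -5.96 ± 0.29 (adjusted p = 3.3e-06), Adgre1 at -2.90 ± 0.32 (adjusted p = 2.9e-04) and Csf1r at -3.21 ± 0.47 (adjusted p = 0.0014), each with 5 and 2 samples. C1qa was at -5.91 ± 0.27 with 11 and 3 samples, C1qc at -3.81 ± 0.42 and Fcer1g at -3.18 ± 0.43 with 20 and 7. Tyrobp, at -1.51 ± 1.42 (adjusted p = 0.43), and Cd68, at -0.36 ± 0.50 (adjusted p = 0.58, all limma), did not pass. Leaving out MEF2 or MEF3 left only 4 of the 8 genes that could be tested, of which 3 were called. The size of the difference varied with the set: the mean log2 difference of C1qc was -3.25 in set 1, -2.31 in set 2, -6.83 in set 3, -4.37 in set 4 and -4.99 in set 5, and that of Fcer1g was -3.56, -2.36, -5.67, -1.43 and -4.36 in the same order.

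**Figure D3:**
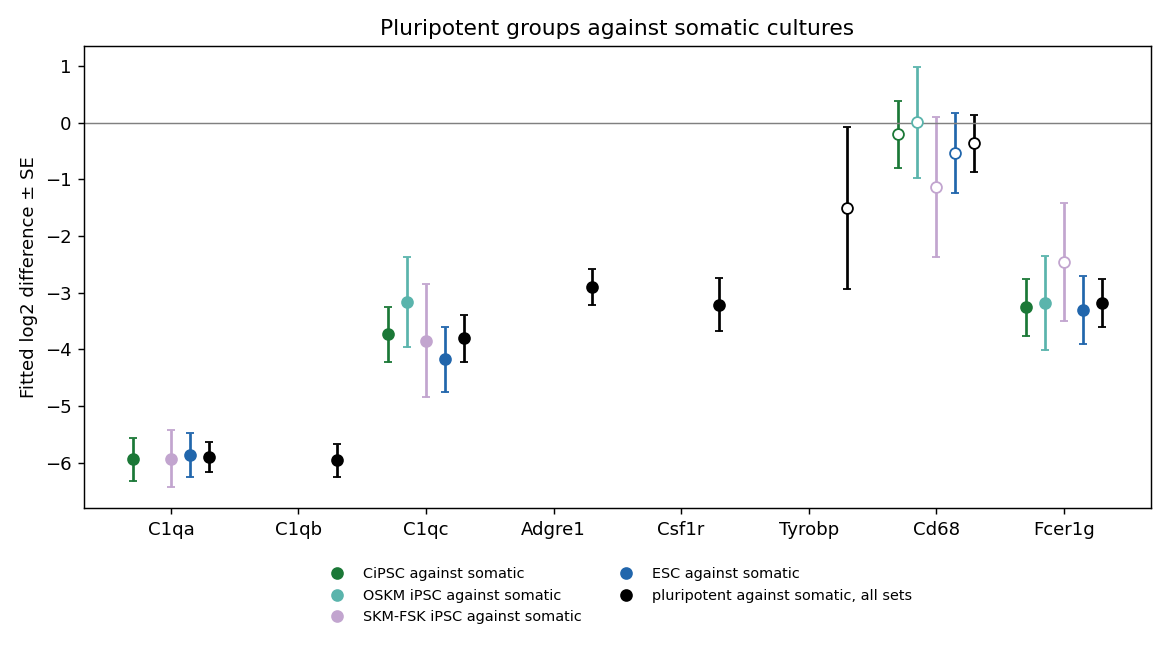
Fitted log2 difference (point) and its standard error (bar) of each gene for each pluripotent group against somatic samples and for all pluripotent samples joined. Filled points were called, open points were not, and a gene without a point in a colour could not be tested. The C1q genes, Adgre1, Csf1r and Fcer1g lie well below 0, and every bar of Cd68 crosses 0.

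Set 2 was the 1 set with several somatic cultures, so a difference could be tested inside 1 normalization. C1qc, at a log2 difference of -2.31 ± 0.55 (adjusted p = 0.0098), and Fcer1g, at -2.36 ± 0.75 (adjusted p = 0.035, limma), were lower in the 6 pluripotent samples than in MNF, MAF and ADSC. These were 2 of 3 genes, where 13.4% of all genes fell. Cd68 was at 0.23 ± 1.02 (adjusted p = 0.893). The Fcer1g call was lost without MAF CiPS3, CiPS45, ADSC CiPS2, OSKM iPS2 or ESC2, each left out alone, at adjusted p between 0.0544 and 0.0626. MAF set much of the size: without it the log2 difference was -1.41 for C1qc and -1.02 for Fcer1g, with both still called.

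The starting cultures were then ordered by how far each gene stood above the highest pluripotent sample of its set, as a description with 1 sample per culture. For C1qc the order was WT MEF (84.9 times), MEF3 (29.7), MEF2 (15.9), MAF (14.8), MEF1 (7.08), ADSC (3.37) and MNF (1.54). For C1qa, reported for 3 cultures, MEF1 came first (95.4), then MEF2 (38.4) and MEF3 (33.4), so MEF1 led for C1qa and lay below MEF3 and MEF2 for C1qc. For Fcer1g the order was WT MEF (46.8), MAF (28.9), MEF3 (15.1), MEF1 (10.6), MEF2 (2.53), MNF (1.91) and ADSC (1.66). WT MEF led and MNF and ADSC came last for C1qc and Fcer1g, while MEF2 lay above MAF and MEF1 for C1qc and below them for Fcer1g. Cd68 stood at least 2-fold above all pluripotent samples in WT MEF (4.25 times) and MAF (2.03 times) alone. Culture and set cannot be told apart except within set 2, and neighbours in these orders were not tested against each other. The highest value was taken over 6 pluripotent samples in sets 1 and 2, 3 in sets 3 and 4 and 2 in set 5. A maximum over fewer samples is easier to exceed.

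Counted over the genes reported, 3 of 4 stood at least 2-fold above every pluripotent sample in MEF1 (9.11% of all genes there), 7 of 8 in MEF2 (14.2%), 6 of 8 in MEF3 (26.9%), 3 of 3 in WT MEF (11.9%), 0 of 3 in MNF (11.5%), 3 of 3 in MAF (10.3%) and 1 of 3 in ADSC (8.7%). A list of other macrophage genes ran the same way at the ends, with 11 of 17 past that line in WT MEF, 10 of 17 in MAF and 14 of 26 in MEF2, against 3 of 17 in MNF and 2 of 17 in ADSC. The list had 4 of 12 past it in MEF1 and 12 of 28 in MEF3. In WT MEF its leaders were the chemokine receptor Cx3cr1, at 21.2 to 32.9 in the pluripotent samples and 985 in the culture, the tetraspanin Cd53 and Ms4a6d. In MAF they were the lysozyme gene Lyz1, at 18.0 to 46.9 in the pluripotent samples and 5836 in the culture, and the endotoxin co-receptor Cd14, at 41.4 to 76.7 and 4238. In MEF2 they were the perforin-like gene Mpeg1, at 10.3 to 14.1 and 628, and Ms4a7, at 18.4 to 21.9 and 860. Both went the other way in set 5. Mpeg1 was 72.1 in MEF3, against 452 in the CiPSC control and 205 in ESC5, and Ms4a7 was 23.0, against 2476 and 2190. MEF3, with only 2 pluripotent samples in its set, stood apart from the other cultures by the share of all genes past the line. There 7 of 11 lymphocyte markers passed it too, with a summed level of 1557 to 2074 in the pluripotent samples and 6547 in MEF3. Their part in these counts was not tested.

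**Figure D4:**
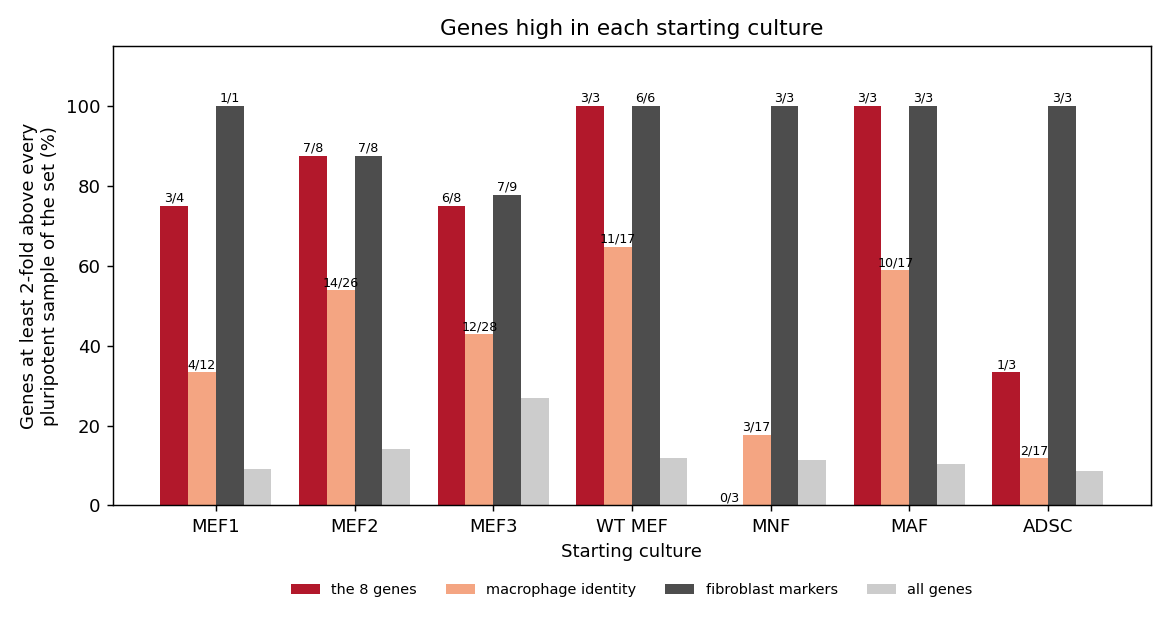
Share of genes (%) that stood at least 2-fold above every pluripotent sample of the same set in each of the 7 starting cultures, for the 8 genes, the macrophage list, the fibroblast list and all genes, with the number of genes over the number reported above the bars. The 8 genes reach 3 of 3 in WT MEF and MAF but 0 of 3 in MNF and 1 of 3 in ADSC, while fibroblast markers are at 3 of 3 in all 3 cultures of set 2.

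Other genes of the pathways were followed in the joined comparison of pluripotent with somatic samples, in which 13.3% of all genes fell and 14.7% rose. Of 27 macrophage genes tested 13 fell and 2 rose, with a median log2 difference of -1.36 against -0.08 over all genes. With values under 16 set to 16, a check added after the data were seen, 11 fell and 1 rose, where 12.7% of all genes fell and 13.7% rose. Called both ways were Lyz1 (-3.96 ± 0.70), Cd53 (-3.96 ± 0.37), the endotoxin co-receptor Cd14 (-3.00 ± 0.59) and the mannose receptor Mrc1 (-2.99 ± 0.44), which fell, and Laptm5 (2.21 ± 0.57), which rose. The calls of Lilrb4a, Cd163 and Adgre4 were lost with the floor (adjusted p = 0.134, 0.0807 and 0.142), since values of these genes lay under it. Of 14 genes of the Csf1 axis and of macrophage transcription factors 6 fell and 0 rose, and 5 fell with the floor, among them the growth factor Csf1 (-4.05 ± 0.42), Cebpb (-3.35 ± 0.35) and Runx1 (-2.92 ± 0.21). Maf, under 16 in all pluripotent samples that report it and in MEF3, lost its call with the floor (adjusted p = 0.137). Spi1, an ETS factor of myeloid cells, fell by 1.65 ± 0.44, and Il34 was at 0.49 ± 0.35 (adjusted p = 0.26, all limma). Spi1 did not follow C1qc in every culture. It was 1177 in MNF, against 35.1 to 390 in the pluripotent samples of set 2. In set 5 Spi1 was 14.6 in MEF3, under the floor, 48.1 in the CiPSC control and 13.0 in ESC5. Csf1 is also made by fibroblasts, and Csf1 stood high in ADSC (169 to 605 in the pluripotent samples and 12670 in the culture). It was high in other cultures too, at 6864 in MNF of the same set and at 4666 in MEF1, against 175 to 595 in set 1. In set 5 Csf1 was 15552 in MEF3, 659 in the CiPSC control and 160 in ESC5. In ADSC Cd68 lay below all pluripotent samples of the set, while C1qc stood 3.37 times and Fcer1g 1.66 times above the highest of them. The source of Csf1 in this culture was not tested.

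Partners of the adaptors moved both ways. Of 17 Fc receptor and ITAM genes 6 fell (5 with the floor) and 3 rose. The receptors Fcgr3 (-3.63 ± 0.44), Clec4d (-3.56 ± 0.49), Trem2 (-3.51 ± 0.34, or -3.32 with the floor) and Fcgr4 (-3.03 ± 0.66) fell, and the intracellular enzymes Inpp5d (4.65 ± 0.41), Plcg2 (2.67 ± 0.25) and Ptpn6 (1.98 ± 0.30) rose. Of 19 complement components other than C1q 5 fell and 0 rose, led by C1ra (-4.47 ± 1.08, or -4.26 with the floor), a protease of the C1 complex, Cfb (-3.41 ± 0.71), the scavenger collectin Colec12 (-2.73 ± 0.43) and C2 (-1.15 ± 0.45). Of 17 complement regulators and receptors 7 fell and 2 rose, or 5 and 1 with the floor. Called both ways were the C1 inhibitor Serping1 (-2.78 ± 0.41), which fell, and Susd4 (1.97 ± 0.27), which rose, while Cd46 lost its call with the floor (adjusted p = 0.177). Of 19 lysosome and phagocytosis genes 10 fell, led by Axl (-5.89 ± 0.41) and Gpnmb (-4.94 ± 0.65), while Apoe (2.35 ± 0.48) and Cd63 (1.59 ± 0.50) rose. Among markers of other blood cells 0 of 9 dendritic cell genes fell, 1 of 8 lymphocyte (0 with the floor), 1 of 7 neutrophil, 1 of 6 mast cell and 1 of 5 erythroid and megakaryocyte genes. Over all genes 13.3% fell, and these small counts were not tested against that share. Of 8 lymphocyte genes 1 rose. Of 8 endothelial genes 3 fell and 1 rose. Of 4 alveolar macrophage genes Car4 and Siglecf rose with and without the floor, and Fabp4 and Marco fell only without it. Of 6 osteoclast genes 3 fell. The summed level of the osteoclast genes was 258 to 385 in the pluripotent samples and 5057 in MEF3 of set 5, and 671 to 1909 in the pluripotent samples and 4490 to 8094 in the cultures of set 2. No value in the table was at 0, and the part of these cells in the results was not tested.

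During chemical treatment the C1q genes were low by the first sample taken. C1qa was 884 in MEF3, 56.8 at day 12, 38.4 at day 20 and 25.2 at day 32, with 26.5 in the CiPSC control and 21.5 in ESC5. C1qb was 1074 in MEF3 and 9.08, 22.0 and 13.2 at days 12, 20 and 32, with 15.2 in the CiPSC control and 15.6 in ESC5. C1qc was 2219 in MEF3 and 85.2, 82.8 and 49.6 at days 12, 20 and 32, with 74.8 and 65.6 in the CiPSC control and ESC5. At day 12 the log2 difference from MEF3 was -3.96 for C1qa and -4.70 for C1qc, and C1qb was at least 67.1-fold lower against the floor. C1qa at day 12 was still 1.40 above ESC5 on the log2 scale and C1qc 0.38, with 0.30 and 0.19 for the CiPSC control. There was 1 sample per day and none between MEF3 and day 12, so no test was made.

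Fcer1g, Adgre1 and Csf1r were also at least 2-fold lower by day 12, by different amounts. Fcer1g was 4296 in MEF3 and 448, 230 and 157 at days 12, 20 and 32, against 284 in the CiPSC control and 153 in ESC5, so its level fell at each step. Adgre1 was 121 in MEF3 and 21.5, 7.00 and 3.67 at the 3 days, with the later values under the floor of 16. Csf1r was 194 in MEF3 and 88.6, 89.8 and 76.4 at the 3 days, and stayed above the 43.2 of the CiPSC control and the 32.8 of ESC5. Csf1r thus kept a level 1.22 above ESC5 on the log2 scale at day 32, the largest such remainder among the 8 genes.

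Cd68 and Tyrobp did not end low. Cd68 was 2268 in MEF3, 425 and 428 at days 12 and 20 and 2011 at day 32, against 1913 in the CiPSC control and 3958 in ESC5. It was 5.34 times lower than MEF3 at day 12 and within 1.13 times of it at day 32. Tyrobp was 34.6 in MEF3 and 19.5, 15.2 and 20.2 at the 3 days, against 128 in the CiPSC control and 184 in ESC5. All 4 of its values in MEF3 and treated cells lay under those of both pluripotent samples.

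**Figure D5:**
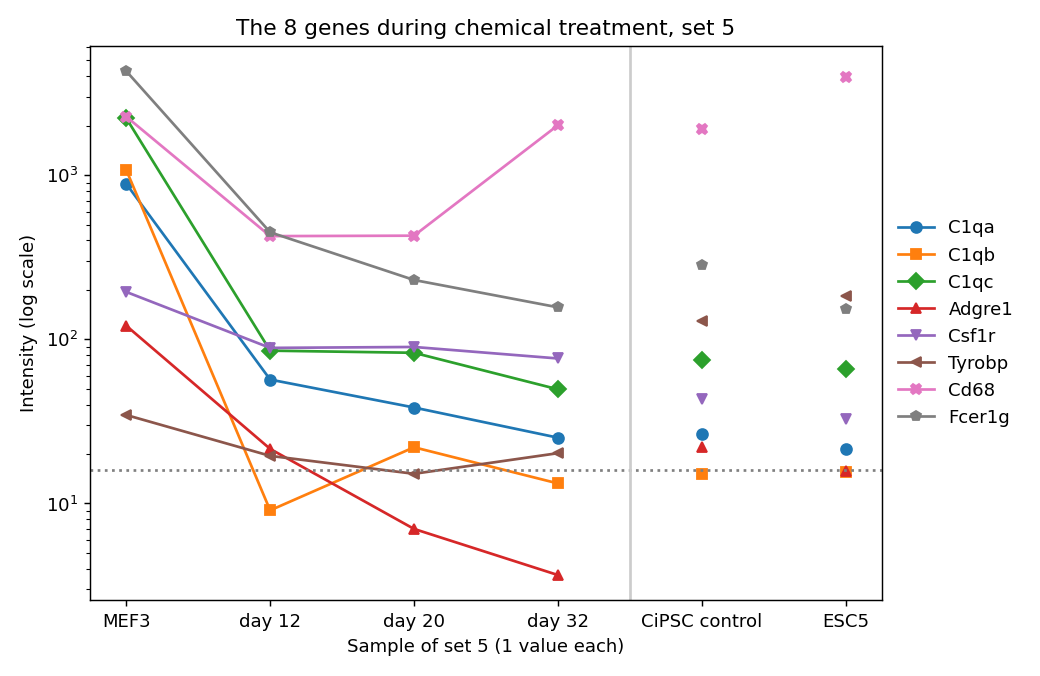
Intensity (log axis) of the 8 genes in MEF3, at days 12, 20 and 32 of treatment, and in the CiPSC control and ESC5 of set 5, 1 value per sample, with the floor of 16 as a dotted line. The C1q genes, Adgre1 and Fcer1g drop by day 12, Cd68 drops at days 12 and 20 and stands at 2011 at day 32, and Tyrobp is lowest in the treated samples.

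At day 12, 7 of the 8 genes were at least 2-fold lower than in MEF3, where 25.9% of all genes were, and 8 of 8 at day 20 (27.2%), 6 of 8 at day 32 (29.7%), 6 of 8 in the CiPSC control (30.2%) and 6 of 8 in ESC5 (31.9%). Since MEF3 is the sole starting sample, genes were also picked without set 5, as those at least 2-fold above every pluripotent sample in MEF2. Of the 7 of the 8 genes so picked, 6 were at least 2-fold lower at day 12, against 19.5% of 2778 genes picked the same way. The fibroblast genes so picked took another course: 0 of 7 were 2-fold lower at day 12, and their median log2 difference was 2.49. In the CiPSC control 7 of 7 were at least 2-fold lower, against 50.9% of the 2778 genes. Over the whole fibroblast list 1 of 9 genes was at least 2-fold lower at day 12 and 7 were at least 2-fold higher. The lower gene was Pdgfrb, with 3803 in MEF3 and 2.83 at day 12, a log2 difference of -7.89 against the floor. Thy1 was 20738 in MEF3, 61410, 54798 and 52294 at days 12, 20 and 32, 478 in the CiPSC control and 1056 in ESC5. MEF3 stood apart for some of these genes: Lum was 81.2 in MEF3, under the 238 of ESC5, and 18915 at day 12, while in set 4 it was 24.3 to 31.3 in the pluripotent samples and 38002 in MEF2. Of the 14 other macrophage genes so picked 6 were lower at day 12, with a median log2 difference of -0.41, the scavenger receptor Msr1 among them, with 874 in MEF3 and 154 at day 12. Over the whole macrophage list 16 of 28 genes were at least 2-fold lower at day 12 and 4 were at least 2-fold higher. The lowest log2 differences were those of Timd4 (-3.12), Folr2 (-2.70), Itgam (-2.62) and Msr1 (-2.50), and the genes that stood higher were Cybb (2.48), Cd53 (1.59), Ms4a7 (1.48) and Adgre4 (1.47). Markers of other cells were lower at day 12 as well: 7 of 11 lymphocyte markers (median -1.39), 4 of 7 mast cell, 3 of 6 osteoclast and 3 of 8 endothelial markers were at least 2-fold below MEF3, and their part in these counts was not tested. No test of the difference between these lists was made, since each day had 1 sample.

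The genes whose pattern was most like the mean of the C1q genes over the 10 samples of sets 4 and 5 were Il15ra, Tnmd, Dipk1b, Cavin2, Ptprr, Pja1, Foxs1 and Rtl3, at Pearson's r between 0.991 and 0.996 among 15619 genes. The names depend on the measure: ranked by Spearman's rho 0 of these 8 stayed in the first 8, and 3 did with no floor on low values. These samples share their sets, and MEF2 and MEF3 alone carry the high values, as with the tendon gene Tnmd, at 40.6 to 53.3 in the pluripotent samples of set 4 and 20868 in MEF2. Of the 8 genes Adgre1 followed the C1q mean at r = 0.988, Fcer1g at 0.877, Csf1r at 0.870, Tyrobp at 0.425 and Cd68 at 0.230. With C1qc alone over all 30 samples, a choice made after the data were seen, the most alike were Ms4a6c, Lpxn, Msr1, Trem2, Stab1, Ly86, Ak5 and Mylk (r between 0.910 and 0.955 among 10280 genes), and 0 of the 8 were shared with the first list. Fcer1g followed C1qc at r = 0.937 and Cd68 at 0.392 over these samples. Trem2, a receptor that signals through Tyrobp, was highest in WT MEF, with at most 43.2 in the pluripotent samples of set 3 and 2028 in the culture. In set 5 Trem2 was 71.0 in MEF3 and 13.6 at day 12, and Msr1 was 874 and 154.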

How the data were processed

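Per the labels, the 30 mouse RNA samples carried Cy5 on Phalanx Mouse OneArray slides. The values of 26423 probes are intensity on a linear scale, as deposited by the authors. The design text says that the authors normalized 5 sets separately and that a sample's values stand for 2 or 3 replicates. The sources used here do not give the scanner, background correction or probe filter. Sets 1 to 5 reported 13989, 15437, 16339, 21717 and 26397 probes, with sample medians of 326 to 328, 357 to 359, 225, 346 to 348 and 110, and in set 5 18.5 to 18.7% of values lay under 16. Of the probes 21876 had 1 gene in the platform annotation and 4547 had none. Symbols and positions are from RefSeq (GRCm38.p6).

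Intensities were converted to log2, with 1 probe per gene (the probe measured in most samples, then with the highest mean). Probes without a gene were each kept, which gave 23631 units, 19084 of them named genes. Counts and shares over all genes are over these units where measured, and likeness took named genes only. Tables were read in R 4.3.3 by the data.table package, version 1.17.8. The limma fit (3.58.1) had a group term and a set term and took all 30 samples, with Benjamini-Hochberg adjustment over all genes tested, and values needed in at least 2 sets holding both groups (1 for SKM-FSK iPSC) and 3 residual degrees of freedom. Folds, the time course and likeness set values under 16 to 16. Other work used Python 3.11.15 with pandas 2.3.3, numpy 2.4.6 and matplotlib 3.10.9. On simulated data with the real spreads the fit of CiPSC against somatic samples (16496 genes) recovered 92% of genes changed by 2 on the log2 scale. It recovered 99% of those changed by 4, with 7 false calls. This fit did best. At a change of 2 the share was 32% for SKM-FSK iPSC (83% at 4) and 62% for OSKM iPSC and for set 2. False calls there were 4, 12 and 10. The remaining fits recovered between 73% and 91% at a change of 2.

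The 8 genes and the 16 lists (226 genes, 201 on the array) were chosen with earlier results of these data known. Named are the 8 genes, up to 4 called and 2 uncalled genes per list (of the called, those also called with the floor of 16), and the 8 genes most like C1q, and Spi1, Il34, Csf1 and Trem2 by their role. Genes named outside this rule were chosen after their values were seen. Alternatives covered the normalization, low values, probes, the set term, somatic samples, the variance prior, the call rule, a replicate block and each sample left out. Numbers shared by titles across sets mark no shared culture in the labels.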

Additional observations from a re-analysis of the deposited data

Results flagged for a closer look

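The difference between pluripotent and somatic samples had opposite signs for Tyrobp in the 2 sets that report it, -4.76 on the log2 scale in set 4 (3 and 1 samples) and 2.15 in set 5 (2 and 1 samples). Every pluripotent sample moved one way in set 4 and the other way in set 5, and the difference between the sets was not tested. Tyrobp was at 5.58 to 17.8 in the pluripotent samples of set 4, near or under the floor of 16, and with that floor the set 4 difference was -4.23. It was at 128 to 184 in those of set 5.

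Among the 4 CiPSC lines of set 1, CiPS50 stood apart for C1qa, at 4.89 on the log2 scale. The other 3 lines had 1 identical value, 30.9, and CiPS50 had 29.6, so the distance is small. Of 10 groups examined this way 1 was marked, and chance marks about 1 in 20 groups.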

How the results depend on the processing

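C1qa, C1qc and Fcer1g kept their sign and call in CiPSC and in ESC against somatic samples under each alternative run, with log2 differences of -6.24 to -5.46, -4.84 to -2.88 and -3.97 to -2.26 in CiPSC. With the title number as a replicate block the ESC values were -6.97 for C1qa (adjusted p = 1.4e-04), -4.38 for C1qc (adjusted p = 0.0088) and -3.94 for Fcer1g (adjusted p = 0.016, limma), and 3 of 4 genes were called as before.

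The number of genes called lower in SKM-FSK iPSC was 4 with no set term and between 1 and 2 with 1 sample left out. With no set term C1qb, Adgre1, Csf1r and Tyrobp also had enough residual degrees of freedom to be tested. That count is therefore not out of the same 4 genes. With MEF as the only somatic samples Fcer1g was called there at -2.74 (adjusted p = 0.0084). The number was between 0 and 2 in OSKM iPSC, between 1 and 2 in set 2 and between 3 and 6 in the joined comparison with 1 sample left out. Adgre1 lost its call in the joined comparison with no set term (adjusted p = 0.082). The comparison of SKM-FSK iPSC over sets holding both groups could not be fitted. The filter on the lowest 25% of genes removed Adgre1 and Tyrobp.

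Cd68 was called under none of these settings and changed sign in several. In CiPSC it was 0.89 without MAF and WT MEF together, a choice made after the data were seen, and -0.65 to 0.31 with 1 sample left out. In ESC it was 0.43 and in the joined comparison 0.58 without MAF and WT MEF, and -0.77 to 0.083 in the joined comparison with 1 sample left out. In OSKM iPSC it was -0.011 with an offset, -0.71 with no set term, -0.40 with MEF as the only somatic samples and -0.65 to 0.73 with 1 sample left out. In set 2 it was -0.80 to 1.77 with 1 sample left out. Between CiPSC and ESC, where none of the genes was called, C1qa was 0.072 over sets holding both groups and -0.078 to 0.072 with 1 sample left out, Cd68 was -0.25 and Fcer1g -0.080 with no set term, and Fcer1g was -0.24 to 0.30 with 1 sample left out. The causes were not tested. In the time course the difference of Adgre1 from MEF3 was -4.11 at day 20 and -5.04 at day 32 with no floor, and that of C1qb at day 12 was -6.88.

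Low signal limits set 5 most. C1qb, Adgre1, Csf1r and Tyrobp rest on 2 sets with 1 somatic sample each, and the time course on 1 sample per day.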

Other observations

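Some genes of the followed lists stood higher at day 12 of treatment than in MEF3, while the C1q genes stood lower. The inhibitory Fc receptor Fcgr2b was 48.8 in MEF3, 2020 at day 12, 1049 at day 20 and 1015 at day 32, against 175 in the CiPSC control and 187 in ESC5. The activating receptor Fcgr3 took the other course, with 790 in MEF3, 90.3 at day 12 and 178 at day 32. Among transcription factors Maf was 2.25 in MEF3 and 389 at day 12, Mitf 30.5 and 467, and Cebpb 1440 and 10177. The collectin Colec12 was 104 in MEF3 and 1301 at day 12, and Cfb 72.1 and 473. These genes were picked after their values were seen. Of all 23609 genes, probes without a gene included, 4848 were at least 2-fold higher at day 12 than in MEF3. In the untreated MEF2 of set 4, Fcgr2b, Maf, Cebpb, Colec12 and Cfb stood at least 2-fold above every pluripotent sample, and Mitf did not. Whether MEF3 was a low sample for them was not tested. There was 1 sample per day, and MEF3 had values under 16 for Maf.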
